A study of Mus musculus with 108 samples.

Results

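The genes described here are the chemokines, small secreted proteins that direct the movement of leukocytes, and the receptors that read them. A gene was taken when it is an autosomal protein-coding RefSeq gene whose symbol is Ccl, Cxcl, Ccr or Cxcr followed by a digit, or Cx3cl1, Cx3cr1, Xcl1 or Xcr1. The rule found 56 of the 20021 autosomal protein-coding genes of GRCm38.p6, 38 of them ligands and 18 of them receptors, and it used no measured value. Cxcr3 lies on chromosome X, and Cxcl11 and Ccl21c have no curated protein-coding transcript on the assembled autosomes, so these genes were not included.

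The study profiled 4 histone H3 marks by ChIP-seq in livers of C57BL/6 female mice, using chromatin extracted from formalin-fixed, paraffin-embedded tissue. SD 3m are mice aged 3 months on standard diet (30 libraries), SD 12m are mice aged 12 months on the same diet (29 libraries), and CR 12m are mice aged 12 months on a diet with 30% fewer calories since the age of 3 months (29 libraries). The libraries of a group were merged by mark before each bin of 200 bp was given 1 of 8 chromatin states, so a group has a single segmentation, the read depth behind a state is unknown, and no difference could be set against the spread between mice. The numbers of libraries per mark differed between groups, from 7 or 8 in SD 3m, over 6 to 8 in SD 12m, to 5 and 6 for H3K4me3 and H3K27me3 and 9 each for H3K27ac and H3K4me1 in CR 12m. How much these numbers moved the states was not tested. Accordingly no test was run, and the 95% exact binomial intervals given below count genes, which are not replicates. Of the 6 hepatocyte markers (Alb, Apoa1, Ttr, Serpina1a, Cyp2e1 and Cps1), 6 had their transcription start site (TSS) in an active state in every group. Whole liver also holds endothelial, stellate and immune cells, and in such bulk tissue fewer cells of a type and less of a mark per cell cannot be told apart.

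Chemokines are grouped by the spacing of their first cysteines into CC, CXC, CX3C and C ligands, and they act through receptors coupled to inhibitory G proteins. Inflammatory chemokines such as Ccl2 and Cxcl10 are induced in hepatocytes, Kupffer cells, endothelium and stellate cells by cytokines and microbial products, whereas homeostatic chemokines such as Cxcl12 are made constitutively. In liver they draw neutrophils, monocytes and lymphocytes from the sinusoids. Chromatin states are read as follows. States 1 and 2 are the active and flanking TSS (H3K4me3 with H3K27ac, and all 3 active marks), states 3 and 4 are active enhancers (H3K27ac, with H3K4me1 in state 3), and state 5 is the poised enhancer (H3K4me1 with little H3K27ac). State 6 is Polycomb chromatin (H3K27me3), state 7 was named for repeats and constitutive lamina-associated domains, and state 8 is quiescent, with no mark detected. Where 3 values or states follow each other without a label, they stand for SD 3m, SD 12m and CR 12m in this order. States 1 to 5 are called active below, a TSS is that of the longest curated transcript, and TSS ± 2 kb is 21 bins.

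In SD 3m, 34 of the 56 genes had the TSS in an active state (60.7%, 95% interval 46.8 to 73.5), 33 in SD 12m (58.9%, 45.0 to 71.9) and 31 in CR 12m (55.4%, 41.5 to 68.7). Over all autosomal protein-coding genes these percentages were 63.0, 63.1 and 63.4. The active states of the chemokine genes were mostly those of enhancers, and most of these TSS are CpG-poor, as described below. The TSS was in state 1 or 2 for 7 (12.5%), 3 (5.36%) and 4 (7.14%) of the genes, against 46.5%, 40.5% and 35.8% of all genes. State 3 held 13, 11 and 11 of the 56 TSS in SD 3m, SD 12m and CR 12m, or 23.2%, 19.6% and 19.6%, where it held 5.33%, 7.70% and 12.8% of all TSS. The poised state 5 held 11 (19.6%), 8 (14.3%) and 2 (3.57%), against 6.01%, 1.64% and 1.63% of all TSS. State 4 ran in the opposite order, with 3 genes (5.36%), 11 (19.6%) and 14 (25%), against 5.19%, 13.2% and 13.3% of all TSS. Without the poised state 5, the share of active TSS among the 56 genes was lowest in SD 3m and highest in CR 12m. The same order held over all genes. Polycomb state 6 held 10, 9 and 9 genes and state 8 held 12, 14 and 16. State 7 held none of the 56 in any group, where a count of 0 leaves an upper limit of 6.38%. The shares of all genes in these states are not given here group by group. State 6 in all 3 groups held 5 members (8.93%), against 6.11% of all genes. State 8 in all 3 groups held 7 members (12.5%), against 14.4%.

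Most chemokine TSS are poor in CpG dinucleotides, which bears on these percentages. In TSS ± 500 bp the ratio of observed to expected CpG was under 0.4 in 44 of the 56 genes, between 0.4 and 0.6 in 6, and at least 0.6 in 6 (Ccl21b, Ccl25, Cxcl12, Cxcl14, Cxcl16 and Cxcr4). Among the 44 CpG-poor members, 25 (56.8%), 24 (54.5%) and 22 (50%) were in an active state in SD 3m, SD 12m and CR 12m. Among the 7194 CpG-poor genes of the whole set the same percentages were 32.8, 34.0 and 33.9. Quiescent state 8 held 22.7%, 27.3% and 29.5% of the CpG-poor members and 53.4%, 42.2% and 49.6% of all CpG-poor genes. Most members in state 1 or 2 in SD 3m (Ccl25, Cxcl1, Cxcl10, Cxcl12, Cxcl16 and Cxcr4) had a TSS of the middle or high CpG class. The shares of states 1 and 2 are not set beside those of other genes by CpG class here. Their low share is thus not shown to be particular to chemokine genes. The 6 hepatocyte markers, all CpG-poor, had 1, 4 and 3 TSS in these states. In SD 3m the active percentage of CpG-poor genes was 45.0 for interleukins and their receptors and 63.2 for the TNF superfamilies, on either side of the members. The members lie in 25 genomic clusters and neighbours share chromatin, so these counts are not of independent genes. With each cluster counted once, the active percentages were 59.1, 55.5 and 53.2.

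**Figure D1:**
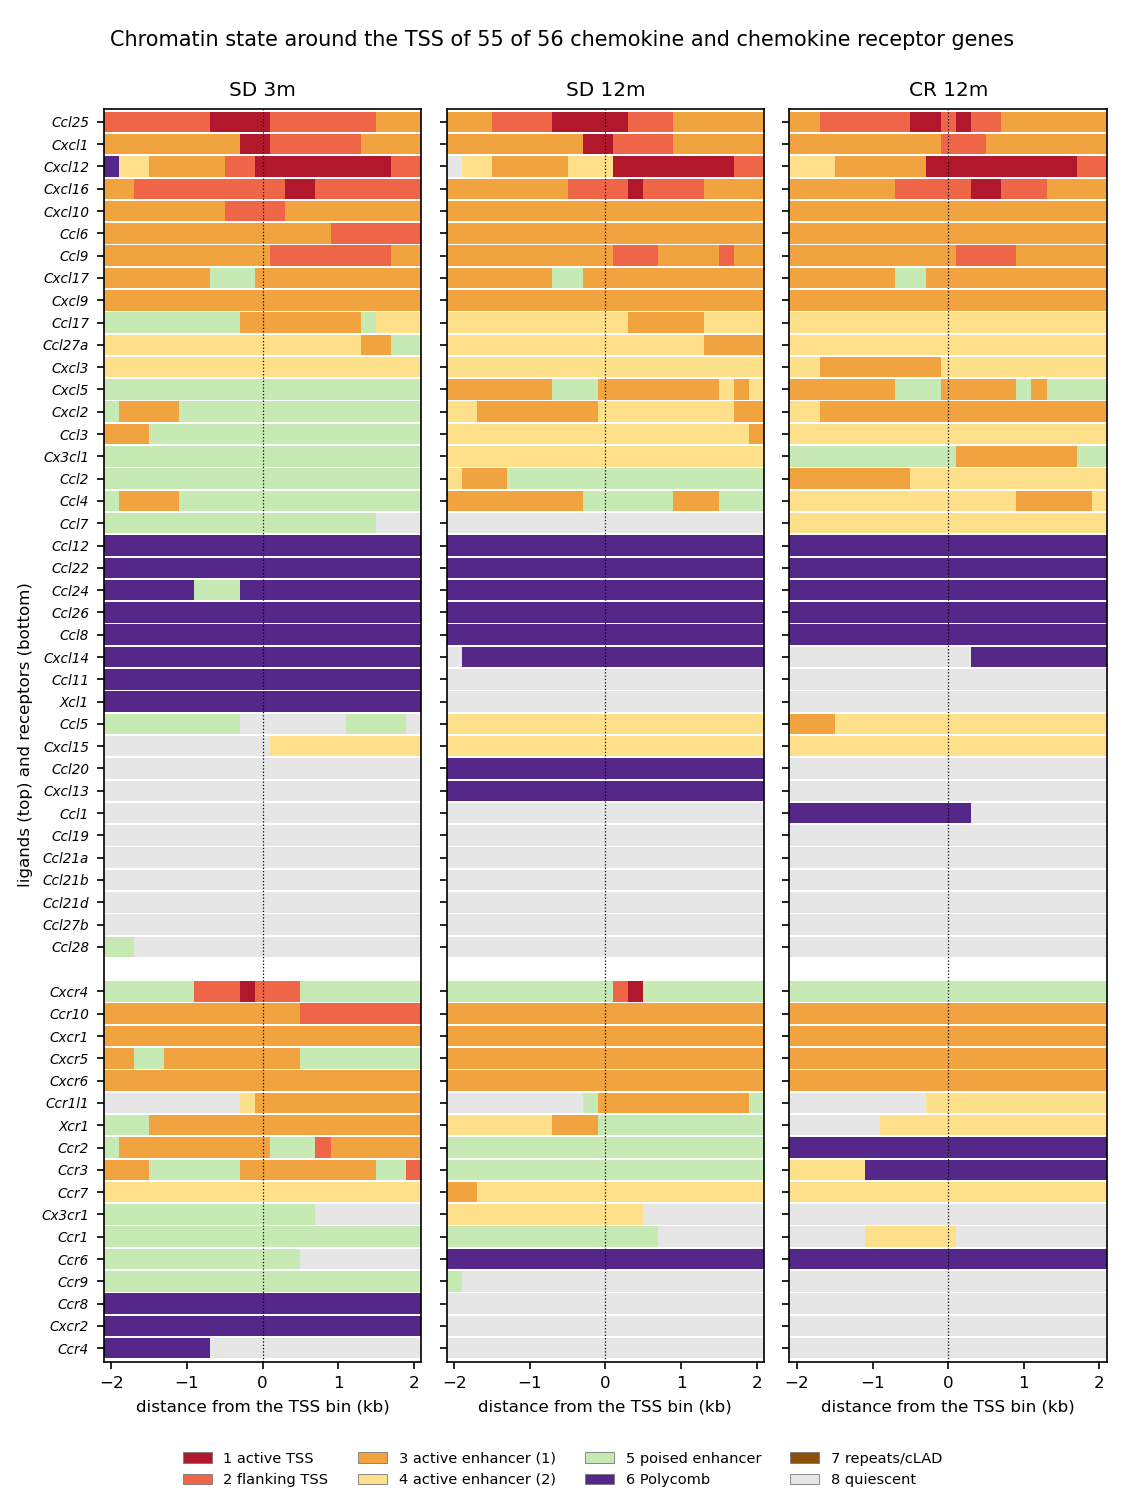
State of each 200 bp bin in TSS ± 2 kb of 55 of the 56 genes, in rows by gene (38 ligands above, 17 receptors below, sorted by the TSS state) and in panels by group. The x axis is the distance from the TSS bin in kb, upstream to the left, and colours are the 8 states. Of the 17 receptors, the whole window was active in 11, 9 and 6.

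The promoters below were chosen because their genes differed in their states across the groups. They show 250 bases upstream of the TSS from RefSeq (GRCm38.p6), 5′ to 3′ on the strand of the gene. The table held the promoters of 42 of the 56 genes. Cxcl12 (chr6:117168285-117168534, plus strand) had its TSS in state 1 in SD 3m and CR 12m and in state 4 in SD 12m. Cx3cr1 (chr9:120068297-120068546, minus strand) had its TSS in state 5, state 4 and state 8, and was thus quiescent in CR 12m alone. In these the capitals mark CpG dinucleotides, of which Cxcl12 has 14 and Cx3cr1 has 4, with a median of 11 over the 15691 promoters compared.
Cxcl12: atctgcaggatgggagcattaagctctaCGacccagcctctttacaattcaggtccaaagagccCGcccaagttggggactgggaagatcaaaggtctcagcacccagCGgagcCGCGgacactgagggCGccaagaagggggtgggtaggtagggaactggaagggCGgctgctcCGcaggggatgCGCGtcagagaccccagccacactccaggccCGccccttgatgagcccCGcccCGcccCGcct
Cx3cr1: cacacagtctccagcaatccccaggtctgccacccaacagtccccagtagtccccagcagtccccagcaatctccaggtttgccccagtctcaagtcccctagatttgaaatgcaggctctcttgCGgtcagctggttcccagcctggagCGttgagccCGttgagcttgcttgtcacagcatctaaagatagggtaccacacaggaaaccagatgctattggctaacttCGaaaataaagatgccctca
Cxcl1 (chr5:90890995-90891244, plus strand) was in state 1, state 1 and state 2, and Cxcl10 (chr5:92348890-92349139, minus strand) in state 2, state 3 and state 3. Cxcl2 (chr5:90903649-90903898, plus strand) was in state 5, state 4 and state 3. Ccr2 (chr9:124101933-124102182, plus strand) was in state 3, state 5 and state 6, with the Polycomb state in CR 12m alone. In these the capitals mark matches to 5 motifs searched on both strands: TATAAA, the AP-1 motif TGANTCA, the interferon-response motif GAAANNGAA, the STAT motif TTCNNNGAA and the NF-kappa B consensus.
Cxcl1: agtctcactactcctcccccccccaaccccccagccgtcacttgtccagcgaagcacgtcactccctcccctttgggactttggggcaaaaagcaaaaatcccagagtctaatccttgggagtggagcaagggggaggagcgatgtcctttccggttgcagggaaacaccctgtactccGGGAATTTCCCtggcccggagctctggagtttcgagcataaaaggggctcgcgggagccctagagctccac
Cxcl10: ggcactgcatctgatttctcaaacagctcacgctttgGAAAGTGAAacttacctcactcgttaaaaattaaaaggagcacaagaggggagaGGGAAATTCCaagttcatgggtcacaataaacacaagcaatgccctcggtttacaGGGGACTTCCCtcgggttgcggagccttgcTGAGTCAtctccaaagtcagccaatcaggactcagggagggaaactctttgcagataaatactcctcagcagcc
Cxcl2: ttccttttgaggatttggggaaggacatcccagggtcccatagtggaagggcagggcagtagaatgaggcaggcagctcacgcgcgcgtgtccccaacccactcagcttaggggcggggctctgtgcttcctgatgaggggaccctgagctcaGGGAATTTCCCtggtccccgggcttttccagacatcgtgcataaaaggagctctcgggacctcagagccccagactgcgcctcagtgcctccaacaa
Ccr2: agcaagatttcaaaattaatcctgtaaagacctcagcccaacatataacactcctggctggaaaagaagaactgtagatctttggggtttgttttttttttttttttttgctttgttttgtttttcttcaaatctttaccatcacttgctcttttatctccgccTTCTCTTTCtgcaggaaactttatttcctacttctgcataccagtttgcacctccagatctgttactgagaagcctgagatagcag
Cxcl1 and Cxcl2 each have overlapping NF-kappa B matches on the 2 strands, from -71 to -61 and from -97 to -87, and Cxcl3 has such a pair from -73 to -63. Cxcl10 has 3 NF-kappa B matches of which the second and the third overlap, with an interferon-response match from -213 to -205 and an AP-1 match from -74 to -68. Ccr2 has a single match, to the interferon-response motif, from -86 to -78, in a stretch with 1 CpG. The NF-kappa B consensus was found in 9 of the 42 members' promoters (21.4%) and in 7.78% of the 15691, GAAANNGAA in 8 (19%) and 7.0%, TATAAA in 11 (26.2%) and 12.4%, TGANTCA in 4 (9.52%) and 6.29%, and TTCNNNGAA in 4 (9.52%) and 6.81%. These are letter matches in 250 bases and describe the sequence.

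Of the 5 CXC ligands that attract neutrophils, Cxcl1 was the gene with a promoter state throughout. Its TSS bin was in state 1, state 1 and state 2, and the stretch in that state measured 0.4, 0.4 and 0.6 kb. Cxcl2, made by macrophages and hepatocytes on endotoxin, was in state 5, state 4 and state 3. Cxcl5 was in state 5 in SD 3m and state 3 in both older groups, and Cxcl3 was in state 4 in every group. Cxcl15, best known from lung epithelium, was in state 8 in SD 3m and in state 4 in SD 12m and CR 12m, with 47.6%, 100% and 100% of TSS ± 2 kb in active states. Of the 5 genes, 4 were thus active in every group and Cxcl15 in the older groups, with 16.0% of the 50-mers around the Cxcl15 TSS recurring elsewhere in the genome. These genes lie within 146.6 kb (chr5:90759298-90905938), where active states covered 65.4%, 86.9% and 81.3% of the bins, against 23.9%, 24.0% and 24.1% of all autosomal bins. State 4 covered 19.3%, 53.4% and 36.2% of this locus and state 5 covered 17.2%, 1.36% and 4.90%. Over all autosomal bins state 4 was also higher in the older groups (6.71%, 9.82% and 8.56%). State 5 was also lower there (5.61%, 2.75% and 2.47%). Of the 228 quiescent bins of the locus in SD 3m, 55.3% were in state 4 in SD 12m and 36.4% in CR 12m.

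Cxcl9 and Cxcl10, the ligands of Cxcr3 induced by interferon, were active in every group over their whole locus of 27.56 kb (chr5:92321331-92348889). Cxcl9 was in state 3 in SD 3m, SD 12m and CR 12m, in stretches of 23.4, 15.2 and 23.6 kb. Cxcl10 was in state 2 in SD 3m and in state 3 in SD 12m and CR 12m, and its nearest bin in state 1 or 2 was at 0.0, 14.4 and 4.2 kb from the TSS bin. A promoter state at the Cxcl10 TSS was thus found in SD 3m, and an enhancer state in both older groups. Among all genes, 376 (1.88%) had the same sequence of TSS states as Cxcl10. The transmembrane ligands differed from each other. Cxcl16, which also acts as a scavenger receptor, was in state 2 in every group, and the TSS of another gene, Zmynd15, lies within 2 kb. Cx3cl1, the ligand of Cx3cr1 on endothelium and cholangiocytes, was in state 5, state 4 and state 5, with all 21 bins of TSS ± 2 kb active in each group.

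The ligands of Ccr2 and Ccr3, which recruit monocytes and eosinophils, were mostly in Polycomb chromatin, with Ccl2 active throughout. Ccl2, the main monocyte attractant, was in state 5, state 5 and state 4. Its neighbour Ccl7 was in state 5, state 8 and state 4, and active states covered 85.7%, 0% and 100% of its TSS ± 2 kb. Ccl7 was thus the single member that was inactive in SD 12m and active in both other groups. Ccl12 and Ccl8 were in state 6 in every group, in stretches of 73.6, 36.8 and 28.4 kb that both genes share, and Ccl11 was in state 6 in SD 3m and state 8 in the older groups. These genes and Ccl1 lie within 144.2 kb (chr11:82035577-82179812). State 6 covered 74.3%, 47.4% and 33.6% of this locus, and state 8 covered 15.8%, 48.5% and 56.2%. Over all autosomal bins state 6 was instead lowest in SD 3m (8.26%, 12.4% and 9.42%). Of the 537 SD 3m bins with state 6 there, 207 (38.5%) had state 8 in SD 12m and 309 (57.5%) in CR 12m, against 37.6% and 43.5% of all autosomal bins in state 6. Ccl24 and Ccl26, the eotaxins, form a locus of 12.6 kb (chr5:135560448-135573049) that was in state 6 in each of its 64 bins in all 3 groups.

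**Figure D2:**
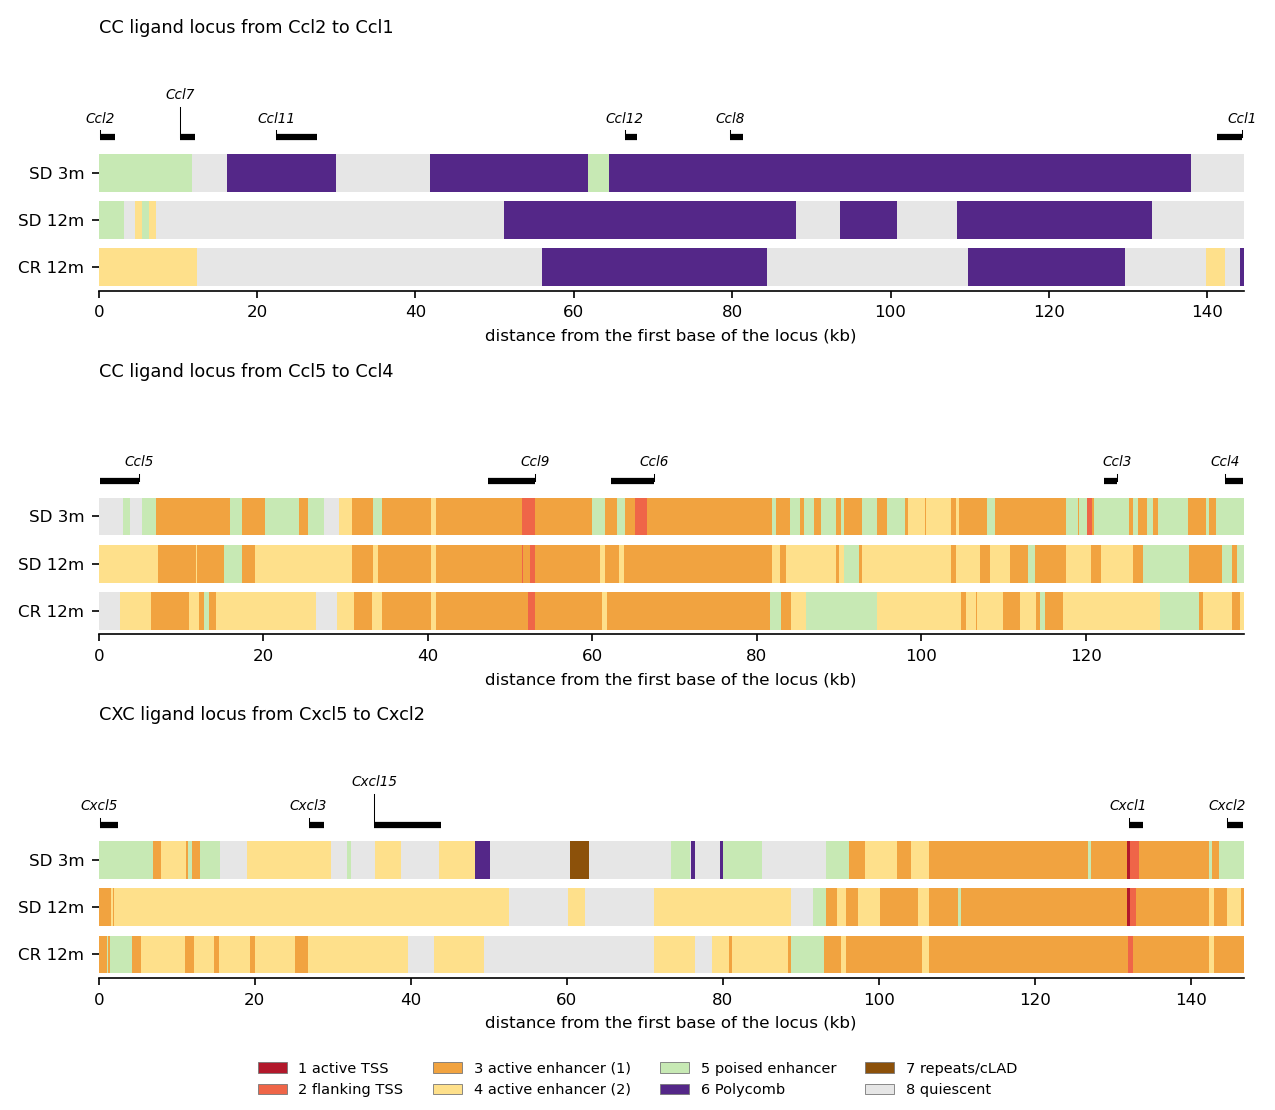
Chromatin states along 3 ligand loci, 1 row for each group, with the chemokine and receptor genes as black bars above and the TSS marked by a line to the gene name. The x axis is the distance in kb from the first base of the locus. State 6 covered 74.3%, 47.4% and 33.6% of the locus from Ccl2 to Ccl1, while the locus from Ccl5 to Ccl4 was active over 95.5%, 100% and 96.3% of its length.

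The CC ligands Ccl3, Ccl4, Ccl5, Ccl6 and Ccl9 showed the reverse, with active states over nearly all of their locus of 138.9 kb (chr11:83525778-83664683). Active states covered 95.5%, 100% and 96.3% of its bins, and state 6 covered none. Ccl6 and Ccl9, which are CC chemokines of rodents made by myeloid cells, were in state 3 in every group, and Ccl9 had a bin in state 1 or 2 at 0.2 kb from its TSS bin in each. Ccl3 was in state 5 in SD 3m and state 4 in SD 12m and CR 12m, and Ccl4 was in state 5, state 5 and state 4. Ccl5, made by activated T cells and platelets among others, was in state 8 in SD 3m and state 4 in both older groups, with 61.9%, 100% and 100% of TSS ± 2 kb active. The SD 3m stretch in state 8 at the Ccl5 TSS was 1.4 kb long, and state 8 covered 84%, 0% and 52% of the Ccl5 gene body. Within this locus state 5 covered 28.3%, 8.91% and 11.5% of the bins, and state 4 covered 5.46%, 37.6% and 40.1%. Over all autosomal bins state 5 was also lower, and state 4 also higher, in both older groups than in SD 3m. Of the 197 SD 3m bins with state 5, 131 (66.5%) had state 4 in SD 12m, against 33.5% of all autosomal bins in state 5.

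Among ligands that guide lymphocytes to lymphoid tissue, Cxcl12 stood apart from the rest. Cxcl12, the ligand of Cxcr4 made by stromal, endothelial and stellate cells, was in state 1, state 4 and state 1. In SD 12m state 1 began in the next bin downstream, so that 8 of the 21 bins were in state 1, against 9 in SD 3m and 10 in CR 12m, and the change at the TSS bin was a shift of the border by 0.2 kb. Cxcl13, the B cell attractant, was in state 8, state 6 and state 8 in SD 3m, SD 12m and CR 12m. Ccl19, Ccl21a, Ccl21b and Ccl21d, the ligands of Ccr7, were in state 8 in every group. These 4 genes and Ccl27b lie in a quiescent stretch of 1095.2 kb, 1102.6 kb and 1103.8 kb. That locus holds near-identical copies. Of the 50-mers in TSS ± 2 kb, 100% recur elsewhere on the assembled chromosomes for Ccl21b and Ccl27b, 99.8% for Ccl21d, 75.3% for Ccl19 and 60.2% for Ccl21a. The authors removed reads of low mapping quality, so an unmarked bin there cannot be told apart from one that could not be read. Without the 10 members in which at least 10% of the 50-mers recur, state 8 held 13%, 19.6% and 23.9% of the TSS.

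The ligands of epithelia and mucosa took several states. Ccl25, which draws T cells to gut and thymus, was in state 1, state 1 and state 2 in SD 3m, SD 12m and CR 12m, but the TSS of Elavl1 lies within 2 kb, and the second curated TSS of Ccl25, 24.4 kb downstream, was in state 8 in every group. Cxcl17 was in state 3 and Ccl27a in state 4 throughout, the latter with 46.7% of its 50-mers recurring. Ccl28 was in state 8 throughout. Cxcl14 was in state 6, state 6 and state 8. Of the ligands of Ccr4, Ccr6 and Ccr8, Ccl17 was in state 3 in SD 3m and state 4 in the older groups, Ccl22 was in state 6 in every group, Ccl20 was in state 8, state 6 and state 8, and Ccl1 was in state 8, state 8 and state 6. Ccl17, Ccl22 and Cx3cl1 are neighbours (chr8:94745684-94812036). In this locus state 6 covered 28.5%, 9.31% and 31.2% of the bins and active states covered 60.1%, 71.8% and 59.8%, with SD 12m apart from both other groups. Xcl1, the C ligand of T and NK cells, was in state 6 in SD 3m and state 8 in the older groups.

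The share of active TSS was higher in receptors than in ligands in SD 3m, and nearly equal in CR 12m. In SD 3m, 15 of 18 receptors had an active TSS (83.3%, 58.6 to 96.4), in SD 12m 13 (72.2%, 46.5 to 90.3) and in CR 12m 10 (55.6%, 30.8 to 78.5). Ligands numbered 19 (50%), 20 (52.6%) and 21 (55.3%) of 38. The mean percentage of TSS ± 2 kb in active states was 77.0, 66.1 and 47.4 for receptors and 53.0, 52.5 and 55.3 for ligands. The receptor intervals overlap across groups, and those of receptors and ligands overlap in SD 3m (33.4 to 66.6 for ligands), and 7 of the receptors share a single locus, so the count rests on few separate places in the genome.

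That locus spans 341.9 kb from Ccr9 to Ccr2 (chr9:123767211-124109140) and holds Ccr9, Cxcr6, Xcr1, Ccr1, Ccr1l1, Ccr3 and Ccr2. The TSS of Fyco1, a gene of another kind, also lies in it. Active states covered 72.9%, 63.9% and 49.0% of its 1710 bins, where all autosomal bins stayed between 23.9% and 24.1%. The enhancer states changed places within it. State 3 covered 36.0%, 15.9% and 12.5%, state 4, the other active enhancer state, covered 3.86%, 9.53% and 32.4%, and the poised state 5 covered 30.4%, 36.8% and 2.75%. Of the 616 SD 3m bins with state 3, 306 (49.7%) had state 5 in SD 12m, against 5.68% of all autosomal bins in state 3. Of the 629 SD 12m bins with state 5, 52.9% had state 4 in CR 12m, 19.4% had state 6 and 18% had state 8. Of all autosomal bins with state 5 in SD 12m, 17.5%, 1.12% and 8.88% did. State 6 covered no bin of the locus in SD 3m and SD 12m, and 8.54% in CR 12m. In all, 37.5% of its bins changed state between SD 3m and SD 12m, 58.1% between SD 3m and CR 12m and 47.1% between SD 12m and CR 12m. The share of all autosomal bins that changed state is not given here, so these percentages alone do not set the locus apart. Relative to young mice, the paper reports less change of state across the genome under caloric restriction than under standard diet. In this locus the order was the reverse.

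**Figure D3:**
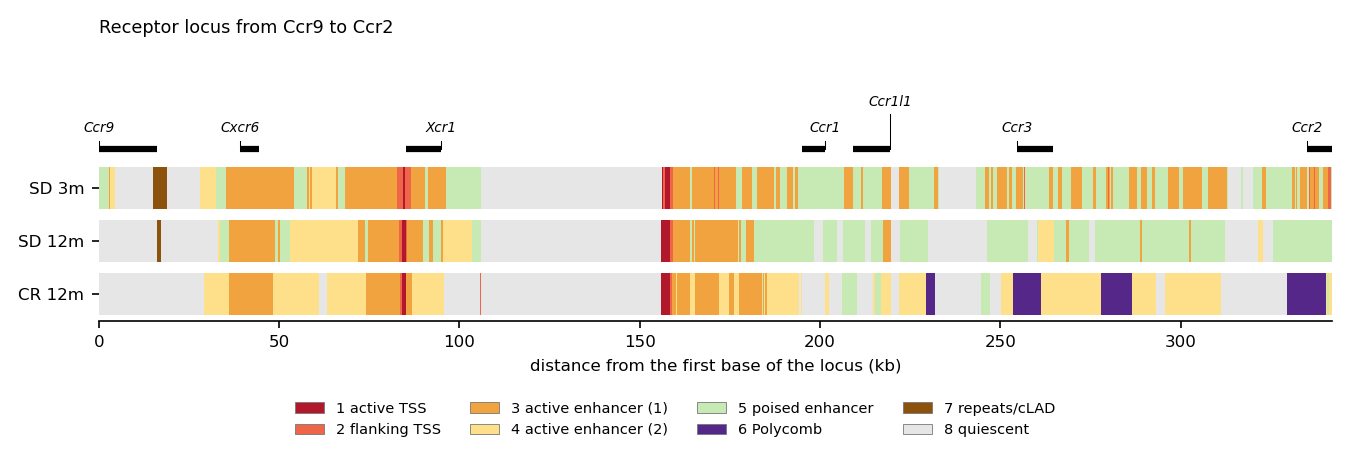
Chromatin states along the receptor locus from Ccr9 to Ccr2, 1 row for each group, with the chemokine and receptor genes as black bars above. The x axis is the distance in kb from the first base of the locus. State 5 covered 30.4%, 36.8% and 2.75% of the bins in SD 3m, SD 12m and CR 12m, and the purple state 6 stretches, 8.54% of the bins, are seen in CR 12m alone of the 3 groups.

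The genes of the locus differed along its length. Ccr2, the receptor of Ccl2 on inflammatory monocytes, and Ccr3, the eotaxin receptor of eosinophils, were in state 3, state 5 and state 6. No other gene among the 20021 had this sequence of states. At Ccr2 all 21 bins of TSS ± 2 kb were active in SD 3m and SD 12m and none in CR 12m, and the TSS lay in a Polycomb stretch of 10.8 kb in CR 12m. At Ccr3 the active percentages were 100, 100 and 23.8, and 13.5% of the 50-mers recur elsewhere. Ccr1 was in state 5, state 5 and state 4 with 100%, 66.7% and 28.6% of the window active, and Xcr1, which marks cross-presenting dendritic cells, was in state 3, state 5 and state 4. Ccr1l1 was in state 3, state 3 and state 4. Of the 50-mers around them 16.6% recur for Ccr1 and 41.0% for Ccr1l1. At the other end, Ccr9, the gut-homing receptor, was in state 5 in SD 3m and in state 8 in both older groups. Cxcr6, the receptor of Cxcl16 on NKT and memory T cells of liver, was in state 3 over all 21 bins in every group. Xcr1, Ccr3 and Ccr2 were thus out of state 3 in both older groups and Ccr1l1 in CR 12m alone, while Cxcr6 in the same locus kept it.

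Of the remaining receptors, Cx3cr1, which marks monocytes and some tissue macrophages, was in state 5, state 4 and state 8, with 66.7%, 61.9% and 0% of TSS ± 2 kb active. Its neighbour Ccr8 was in state 6 in SD 3m and in state 8 in both older groups. Their locus of 46.22 kb (chr9:120048683-120094906) was active over 44.0%, 44.4% and 12.9% of its bins. Cxcr4, the receptor of Cxcl12, was in state 2, state 5 and state 5, and its nearest bin in state 1 or 2 was in the TSS bin in SD 3m, 0.2 kb away in SD 12m and 174.6 kb away in CR 12m. Among all genes Cxcr4 was the single one with this sequence of TSS states. The neutrophil receptors went separate ways within 40.64 kb (chr1:74153994-74194631). Cxcr1 was in state 3 over its whole window in every group, whereas Cxcr2 was in state 6 in SD 3m, in a stretch of 26 kb, and in state 8 in SD 12m and CR 12m. Ccr6, the receptor of Ccl20 on B cells and Th17 cells, was in state 5 in SD 3m and state 6 in both older groups. Its other curated TSS, 6.5 to 9.0 kb downstream, were in state 8 or state 6 in SD 3m already, and in state 6 in both older groups. The lymphoid receptors Ccr7 and Cxcr5 kept state 4 and state 3, as did Ccr10 with state 3, near the TSS of Cntnap1. Ccr4 was in state 8 throughout.

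**Figure D4:**
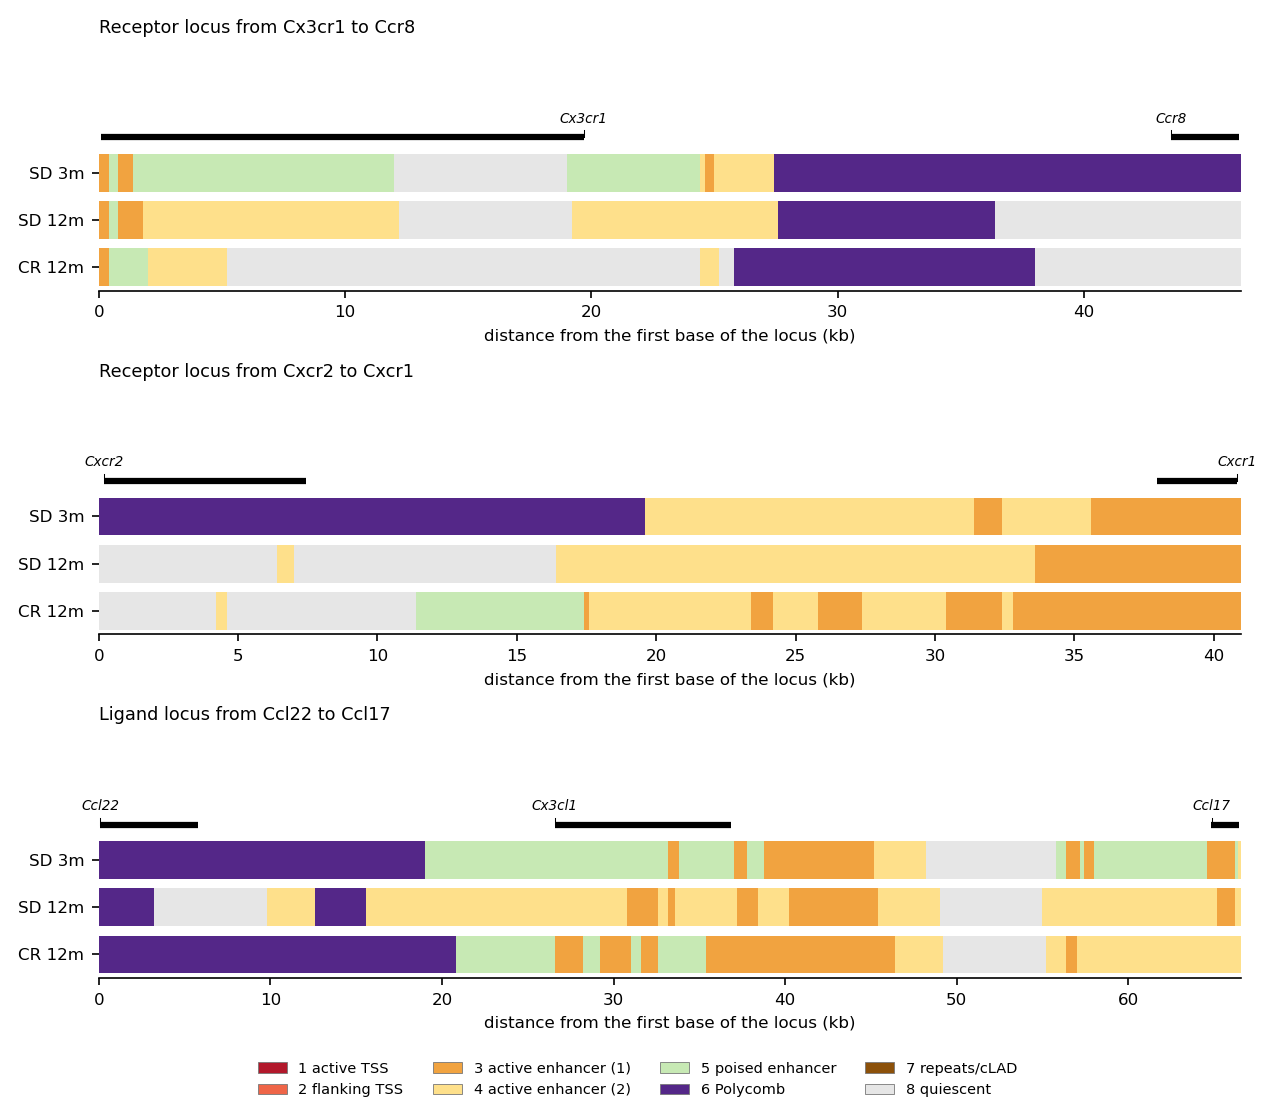
Chromatin states along 3 further loci, 1 row for each group, with the chemokine and receptor genes as black bars above and the distance in kb from the first base of the locus on the x axis. Active states covered 44.0%, 44.4% and 12.9% of the locus from Cx3cr1 to Ccr8, and state 6 covered 47.8% of the locus from Cxcr2 to Cxcr1 in SD 3m and no bin of it in the older groups.

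Counted as changes of the TSS bin, 24 of the 56 genes (42.9%, 29.7 to 56.8) differed in state between SD 12m and SD 3m, against 32.7% of all genes. In CR 12m 28 (50%, 36.3 to 63.7) differed from SD 3m, against 35.5%, and 19 (33.9%, 21.8 to 47.8) differed from SD 12m, against 27.1%. Both of the first comparisons use the same SD 3m segmentation and are given side by side. Part of these changes were between related states. The states were then merged into 5 classes (1 and 2, 3 to 5, 6, 7 and 8). Between SD 3m and SD 12m 15 genes (26.8%) differed in class, between SD 3m and CR 12m 16 (28.6%) and between SD 12m and CR 12m 9 (16.1%). Over all genes these percentages were 23.0%, 25.9% and 19.9%. The same state in all 3 groups was found for 24 of the 56 (42.9%), for 18 of 38 ligands and for 6 of 18 receptors, against 54.9% of all genes and 54.4% of the CpG-poor ones.

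Passages between active and inactive states were few. From SD 3m to SD 12m, Ccl7, Ccr6 and Ccr9 passed from an active to an inactive state (5.36%, against 2.27% of all genes), and Ccl5 and Cxcl15 passed the other way (3.57%, against 2.37%). From SD 3m to CR 12m, 5 receptors passed to an inactive state, namely Ccr2, Ccr3, Ccr6, Ccr9 and Cx3cr1 (8.93%, against 2.64%), and again Ccl5 and Cxcl15 passed the other way (3.57%, against 3.07%). Between SD 12m and CR 12m, Ccr2, Ccr3 and Cx3cr1 were active in SD 12m and inactive in CR 12m (5.36%, against 1.74%), and Ccl7 was the reverse (1.79%, against 2.08%). The 5 receptors have CpG-poor TSS, and Ccr2, Ccr3 and Ccr9 are neighbours. Ccl7, Ccr6, Ccr9 and Cx3cr1 were in the poised state 5 in SD 3m, as were Ccr2 and Ccr3 in SD 12m. The other curated TSS of Ccr6 were inactive in SD 3m already. The 95% interval over 56 genes runs from 1.12% to 14.9% for 3 genes, which holds the percentages of all genes. For 5 genes it runs from 2.96% to 19.6%. Neighbouring genes are not independent, so this interval is too narrow, and its lower bound is no test against the 2.64% of all genes. That percentage also includes genes that are not CpG-poor.

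These receptors are carried by leukocytes, and the markers of such cells were mostly inactive in these segmentations. Of the 5 Kupffer cell markers on autosomes, 2 had an active TSS in SD 3m and 1 in SD 12m and CR 12m. Csf1r, the receptor for macrophage colony-stimulating factor, was in state 3 throughout, while Adgre1, which encodes F4/80, was in state 5, state 6 and state 8, and Clec4f, Cd5l and Timd4 were inactive in every group. The 5 T and NK cell markers and the 4 neutrophil markers were inactive in every group, and of the 3 B cell markers Cd79a was in state 4 throughout. The 5 sinusoidal endothelial markers had 3, 3 and 5 active TSS, the 5 stellate markers had 1 in each group, and the 4 cholangiocyte markers had 1, 2 and 3. The part of cell numbers in the receptor states was not tested.

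The other genes of the pathway showed a similar mixture. Of 7 atypical receptors and platelet chemokines, Ackr2, Ccrl2 and Ppbp kept an active state, Ackr1, which binds chemokines on red cells and venules, kept state 6, Ackr3, the scavenger of Cxcl12, was in state 5, state 4 and state 8, Ackr4 was in state 8, state 8 and state 4, and Pf4 was in state 5, state 4 and state 4. Of the 8 genes of the signal relay, Gnb1 and Grk6 were in state 1 throughout, and Arrb2 and Gnai2 kept an active state. Pik3cg and Dock2, which drive leukocyte migration, were in state 1 and state 5 in SD 3m and in state 8 in both older groups. Rac2 was in state 5, state 4 and state 4, and Rgs1 was in state 7 in every group. Of the upstream inducers, Nfkb1 and Rela were in state 1 throughout, Irf1 was in state 2, state 1 and state 2, Tnf was in state 3 and Ifng in state 8 throughout, Il1b was in state 5, state 4 and state 4, and Il6 was in state 5 in SD 3m and state 8 in both older groups. The named transcription factors Nfkb1, Rela and Irf1, whose TSS are rich in CpG, were thus in promoter states in each group.

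**Figure D5:**
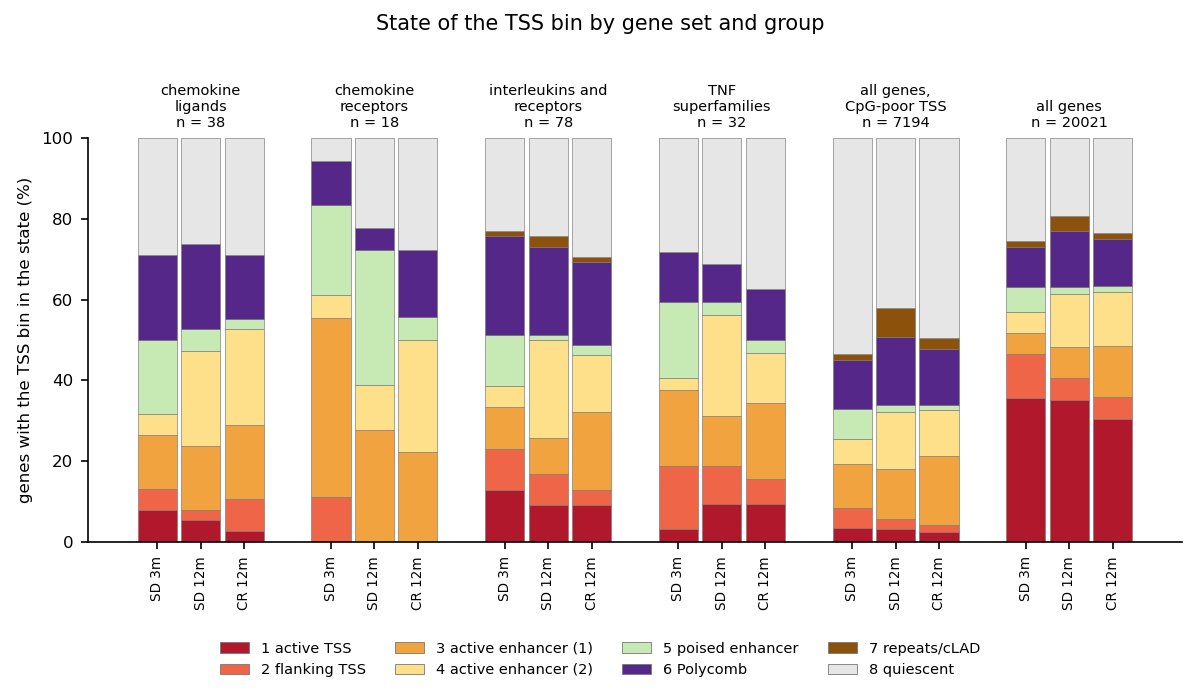
Percentage of genes with the TSS bin in each of the 8 states, in stacked bars for 6 gene sets and the 3 groups, with the number of genes above. Receptors had 83.3%, 72.2% and 55.6% of TSS in states 1 to 5, and all genes 63.0%, 63.1% and 63.4%, of which state 1 made up 35.6%, 35.2% and 30.5% of genes.

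Set beside other families of immune signals, the chemokine genes had a lower percentage of promoter states in each group. The difference was not tested, and the families were not matched for CpG content. The TSS was in state 1 or 2 for 12.5%, 5.36% and 7.14% of the 56 genes in SD 3m, SD 12m and CR 12m, for 23.1%, 16.7% and 12.8% of 78 interleukin and interleukin receptor genes, and for 18.8%, 18.8% and 15.6% of 32 genes of the TNF ligand and receptor superfamilies. State 3 held 23.2% of the chemokine set in SD 3m, 10.3% of the interleukin set and 18.8% of the TNF set. In SD 12m state 5 held 14.3% of the chemokine set (6.38 to 26.2), 1.28% of the interleukin set and 3.12% of the TNF set, and Xcr1, Ccr1, Ccr3 and Ccr2 are among these 8 chemokine genes. Active states in sum held 60.7%, 58.9% and 55.4% of the chemokine set, 51.3%, 51.3% and 48.7% of the interleukin set and 59.4%, 59.4% and 50% of the TNF set. The TSS state differed between SD 3m and SD 12m in 42.9% of the chemokine set, 46.2% of the interleukin set and 56.2% of the TNF set, and between SD 3m and CR 12m in 50%, 48.7% and 56.2%. The same state in all 3 groups was found for 42.9%, 39.7% and 31.2% of these sets.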

How the data were processed

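Livers of the 3 groups were profiled by ChIP-seq for H3K4me3, H3K27me3, H3K27ac and H3K4me1, in 88 of 108 libraries. The 20 libraries of mice aged 6 months were not analysed here. The authors aligned reads to mm10 with BWA 0.6.2-r126, processed them with SAMtools 0.1.18, removed duplicates and reads of low mapping quality, merged the libraries of a group by mark and ran ChromHMM. The segmentations of 3 groups were used here. The deposited files hold a chromatin state number (a label from 1 to 8, not a score) for each stretch of 200 bp bins. Reads that map to several places are lost by this filter.

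From these files the state of the TSS bin and of TSS ± 2 kb was read for RefSeq genes of GRCm38.p6, the sequence of mm10, with Python 3.11.15, numpy 2.4.6, pandas 2.3.3 and scipy 1.17.1. Counting scripts were checked on simulated data. Intervals are exact binomial (95%) and cover counting of genes alone. Clusters join members with TSS at most 500 kb apart. Full values were given for members that were active in any group, that changed among the 5 classes or that had at least 50% of the window in state 6 in all groups, and for a set of well-known members whatever their values. The members and lists were chosen with earlier results of these data known. Alternatives were another TSS, other windows, merged states, a filter on stretches under 1 kb, other backgrounds and members left out. Protein sequences were not used here. A member of the set and a gene of the pathway lists enter the counts and are not reported here by themselves.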

Additional observations from a re-analysis of the deposited data

Results flagged for a closer look

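Some values lay on opposite sides of SD 3m in SD 12m and CR 12m, for the loci by as little as 1 or 2 bins on 1 of the sides. Values follow the order SD 3m, SD 12m, CR 12m. For each the difference was not tested, since a group has a single segmentation. Active states covered 85.7%, 0% and 100% of TSS ± 2 kb of Ccl7. In the locus from Ccl2 to Ccl1, of which Ccl7 is a gene, they covered 9.96%, 4.01% and 10.2% of the bins (72, 29 and 74 of 723), where SD 3m and CR 12m nearly coincided. In the locus from Ccl22 to Ccl17 they covered 60.1%, 71.8% and 59.8% (200, 239 and 199 of 333 bins), where SD 3m and CR 12m differed by 1 bin. In the locus from Cx3cr1 to Ccr8 they covered 44.0%, 44.4% and 12.9%, where SD 3m and SD 12m differed by 1 bin.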

How the results depend on the processing

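The 21 percentages over the 56 genes (active, state 6 and state 8 at the TSS and in the window, and changes of state) gave 147 values under the alternatives, and 144 of these stayed within the interval of the value they replace. These intervals are wide, and say little of stability: state 8 at the TSS in SD 3m held 13% without the members with recurring 50-mers, against 21.4%. The 21 values for the most upstream TSS and the 9 for any TSS of the gene equal the ones they replace, the former by construction. The 3 that moved came from merging the 8 states into 5 classes, which by construction counts fewer changes: 26.8% for SD 12m against SD 3m, 28.6% for CR 12m against SD 3m and 16.1% for CR 12m against SD 12m. Over all autosomal genes with a curated transcript, coding or not, the active percentages were 60.4, 60.6 and 61.0. No paired analysis was possible because the libraries of a group were merged into 1 segmentation, and for the same reason no replicate could be left out. The depth behind each state is unknown, so an unmarked bin may lack reads or lack marks.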
